A study of Homo sapiens with 30 samples.

Results

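The regions described here are promoter sites of the transcription factor MYC at which no MYC peak was called once MYC had been degraded for 4 h. They were chosen from the deposited peak lists. Overlapping MYC peaks of the 2 DMSO libraries, numbered 1 and 3, were merged into 4437 regions, of which 1068 held a peak of both libraries. Of these 1068 regions, 817 had their midpoint within 1 kb of a start site listed in the PRO-seq table. A peak of at least 1 dTAG47 library overlapped 234 of the 817, and the other 583 are the cleared promoter regions. Their peak scores, their lack of a dTAG47 peak and their nearness to a start site are therefore the terms of the choice and are given below without a test.

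All cells were G401, an established human malignant rhabdoid tumour line, or a derivative named DTMYC. DTMYC cells carry a lentiviral c-MYC with an N-terminal HA-FKBP12F36V (dTAG) module, and their endogenous MYC was removed with CRISPR-Cas9. dTAG47 is a small molecule that brings proteins with this module to the ubiquitin system, and DMSO is its solvent. DTMYC cells were given 500 nM dTAG47 or DMSO for 4 h before MYC ChIP-seq (2 DMSO and 3 dTAG47 libraries) and PRO-seq (2 and 2). They were treated for 24 h before ATAC-seq (3 and 3) and RNA-seq (3 and 3). Parental G401 cells, whose MYC carries no such module, were given the same treatments for 24 h before RNA-seq (3 and 3). In DTMYC cells every group, the DMSO controls included, thus has the transgene as its source of MYC, and whether the line is a single clone is not given in the sources used here.

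MYC binds DNA as a dimer with MAX, and the preferred sequence of the dimer is the E-box CACGTG. It occupies promoters that are already open, and it is known for supporting genes of ribosome production, translation, mitochondria and nucleotide synthesis. Rhabdoid tumours lack the SWI/SNF subunit SMARCB1, a protein that can bind MYC.

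Genes and libraries were checked first. SMARCB1 had at most 2 gene body counts in any PRO-seq library, and its RNA-seq level was not analysed here. VIM lay between 616 and 692 CPM (counts scaled to the library's total) in the 6 DTMYC RNA-seq libraries, and the keratins KRT8 and KRT18 between 3884 and 4944 CPM and between 1214 and 1605 CPM. Of the other epithelial markers checked, EPCAM, CDH1 and KRT19 reached at most 0.552 CPM. The haematopoietic markers PTPRC and CD3E were at 0, and ITGAM lay between 0.832 and 1.42 CPM. The endothelial CDH5 reached at most 0.034 CPM and VWF lay between 1.55 and 3.52 CPM. MYC mRNA was 1366 ± 46.2 CPM in DTMYC cells in DMSO and 1410 ± 64.7 in dTAG47 (SD, n = 3 each), which says nothing of the protein that dTAG47 acts on. RNA-seq libraries held 27854207 to 54633745 counts, and PRO-seq libraries 18209879 to 23256313 in gene bodies and 1216928 to 1632084 in promoter-proximal regions. The parental DMSO library 3 stood apart. The SD over genes of its deviation from the group mean was 0.355 on the log2 scale, against 0.149 to 0.244 in the other 11 libraries. The DMSO ChIP-seq libraries had 4010 and 1519 peaks, and the dTAG47 libraries 408, 7 and 193, so a region without a dTAG47 peak may hold MYC below what these libraries could call. The depth behind the peak lists is unknown.

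The next 6 stretches of 30 bases show the E-box in its setting. They come from cleared regions of high score in both DMSO libraries (lower scores of 138 to 195) and were picked because they hold CACGTG, which not every region of high score does. All sequences are from the plus strand of GRCh37, the build hg19, and capitals mark CACGTG. In GENCODE 44 none of the printed stretches overlaps an exon. Those at ACTR3B and MXD3 lie in an intron of that gene, the one at GET4 in an intron of SUN1, the one at CCDC86 in an intron of its antisense gene, and those at CCDC6 and CTBP2 between genes.
ACTR3B, chr7:152457278-152457307: gcctcccccgccCACGTGgccgggcccctg
CCDC6, chr10:61666575-61666604: gctcgccagccaCACGTGttccaagggagg
GET4, chr7:915910-915939: cccgccctgggcCACGTGttgcctgcggac
MXD3, chr5:176739265-176739294: gcccagccgctgCACGTGggtgccgcgggg
CTBP2, chr10:126849958-126849987: cgggcagccggcCACGTGggggaacgcgag
CCDC86, chr11:60609549-60609578: cggcgggggctgCACGTGcgcaggggtgtg

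The next 5 stretches come from cleared regions whose genes are described below for their change in RNA, and were chosen after those changes were seen. The first 3 are at genes that fell in RNA-seq, the fourth is at a gene that rose, and the fifth is from a region shared by a gene that fell (AHSA1) and one that rose (C14orf133). The stretch at TAF4B lies between genes, the fifth in an intron of AHSA1, and the other 3 in an intron of the named gene.
TAF4B, chr18:23806214-23806243: gcttgcccctccCACGTGataggtttctgg
POLR3G, chr5:89770888-89770917: gaattaaaggggCACGTGgaaaaggtgagg
PPARGC1B, chr5:149110364-149110393: ctgccgtactttCACGTGgacttgtggccc
METAP1D, chr2:172865124-172865153: agaacacgtcacCACGTGgcatcttttcgc
C14orf133, chr14:77924901-77924930: aggtgcttattaCACGTGgccagaggagtc

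The regions richest in the E-box are shown because its copies there are crowded. The region at GET4, a component of the pathway that inserts tail-anchored proteins into membranes, held 9 copies in near-identical units inside an intron of SUN1. The region at ZZZ3, a subunit of a histone acetyltransferase complex, held 5 copies, of which the stretch shown, in an intron of ZZZ3, holds 4.
GET4, chr7:915877-916136: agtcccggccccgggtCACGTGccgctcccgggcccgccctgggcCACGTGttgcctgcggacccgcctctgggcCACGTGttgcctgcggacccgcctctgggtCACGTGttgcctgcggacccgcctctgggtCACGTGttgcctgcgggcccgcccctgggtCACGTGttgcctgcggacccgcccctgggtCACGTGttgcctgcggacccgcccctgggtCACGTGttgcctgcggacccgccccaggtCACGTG
ZZZ3, chr1:78148509-78148768: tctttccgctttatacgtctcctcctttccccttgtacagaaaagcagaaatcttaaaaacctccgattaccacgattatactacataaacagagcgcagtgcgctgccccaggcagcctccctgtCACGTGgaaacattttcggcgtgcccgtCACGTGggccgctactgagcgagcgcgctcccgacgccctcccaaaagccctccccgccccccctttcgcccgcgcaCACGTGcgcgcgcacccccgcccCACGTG

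E-boxes were common in the cleared regions. A copy of CACGTG lay wholly within the central 200 bases in 135 of the 583 cleared regions, or 23.2%. The exact binomial 95% interval was 19.8 to 26.8, and such intervals cover counting error only. In the 234 regions that kept a dTAG47 peak the share was 26.9% (21.4 to 33.1). It was 16.5% in promoter regions called in 1 DMSO library and free of a dTAG47 peak. Of all 20469 start sites on the numbered chromosomes and X, 5.91% held the E-box in a window of the same 200 bases. Start sites with an ATAC-seq peak in all 6 libraries and no MYC peak within 1 kb numbered 6290, and 5.72% of them held it (5.16 to 6.33). In these central windows the intervals of the cleared and the kept regions overlapped, and each lay above both sets of start sites. In wider windows they did not overlap. Within 250 bases of the midpoint the share was 41.2% of cleared regions (37.1 to 45.3) and 54.3% of kept regions (47.7 to 60.8), and anywhere in the region it was 55.4% (51.3 to 59.5) and 71.4% (65.1 to 77.1). Kept regions were also wider, with a median of 910 bases against 729.

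**Figure D1:**
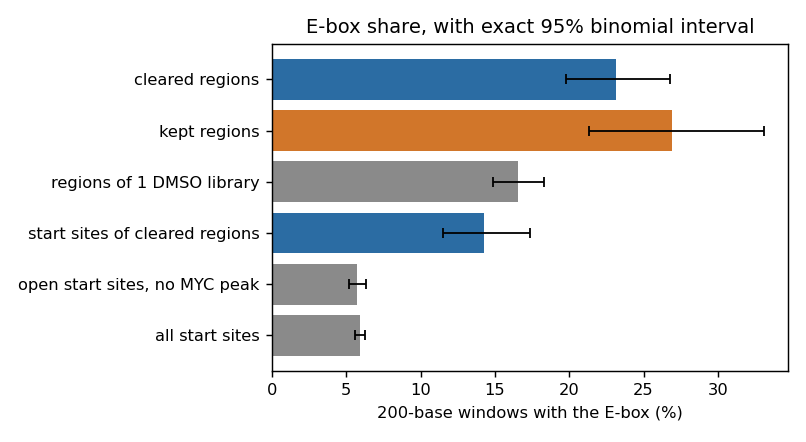
Share of 200-base windows that hold CACGTG (horizontal axis, %), with exact 95% binomial intervals as bars, for windows at the midpoints of MYC regions (top 3 bars), at the start sites of cleared regions, and at start sites in general. Cleared regions stand at 23.2% and kept regions at 26.9%, while start sites without a MYC peak stand at 5.72%.

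Position mattered for this count. Windows at the start sites of the cleared regions, rather than at the midpoints, held CACGTG in 14.2%. Anywhere in the region it was found in 323 of 583, with 1 copy in 245 regions, 2 in 63 and 3 in 13, besides GET4 and ZZZ3. Where a region held a copy, the nearest lay a median of 123 bases from the midpoint. Of the 424 copies, 100 read CCACGTGC on one strand or the other and 96 read CCACGTGG. The share of regions with a central E-box followed the peak score. It was 13.1% in the 145 cleared regions with lower scores of 13 to 33, 16.4% in the 146 from 34 to 49, 25.3% in the 146 from 50 to 74, and 37.7% in the 146 from 74 to 389.

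Among other letters searched on both strands, the form CACGCG lay in 24.9% of the central windows, against 10.7% of all start sites and 13.4% of the open start sites without MYC. CACGAG lay in 10.1%, against 5.22% and 5.33%. CATGTG lay in 6.0% (4.22 to 8.25), against 5.95% of all start sites and 3.26% of open start sites without MYC (2.83 to 3.73). GGGCGG, the core of SP and KLF sites, was present in 57.6% of the central windows, more often than at all start sites (50%) and less often than at the open ones without MYC (69.4%). CCAAT, the core of NFY sites, was present in 14.9%, against 25.3% and 28.7%. TATAAA was present in 1.54%, against 6.22% and 1.59%. These windows lie at region midpoints and the comparison windows at start sites, so their place in the promoter differs as well. In windows at the cleared regions' own start sites, CCAAT was present in 27.6%, GGGCGG in 68.8% and TATAAA in 4.12%. There CACGCG was present in 22.5%, CACGAG in 7.89% and CATGTG in 7.03%.

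The rule set the distance of the regions from a start site, and the same limit of 1 kb held for the other promoter regions. The midpoint lay within 500 bases in 83.2% of cleared, 88.9% of kept and 80.8% of 1-library regions. The cleared regions had a median width of 729 bases (345 to 4018), and their median midpoint lay 124 bases downstream of the nearest start site. It was downstream in 389 of 583 regions, and 434 regions (74.4%) covered the start site itself. Of kept regions 88.0% did so and of 1-library regions 55.8%, with median widths of 910 and 483 bases. In GENCODE 44 the midpoint fell in an exon in 291 regions, in an intron in 169, in a non-coding gene in 38 and between genes in 85. The median GC content of the central 300 bases was 68.7%, the same as around open start sites without a MYC peak (68.7%), and 64.0% around all start sites. The distance limit ran through a sparse part of the distribution. FZD2 (963 bases) and ZFP36L2 (972 bases) were the last regions inside it, while IGF2BP1 (1010 bases) and TRIB1 (1026 bases) were the first outside, with scores of 201 and 99 and of 81 and 50 in the 2 libraries.

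The score of a peak is the authors' value, read here as 10 times the −log10 q value by the convention of MACS2, so it measures how surely a peak was called and is not comparable in size between libraries. The lower of the 2 DMSO scores had a median of 50 in the cleared regions (quartiles 34 and 74) and of 94 in the regions that kept a dTAG47 peak. BRWD1, which encodes a bromodomain protein, had the highest, with 389 in library 1 and 401 in library 3. RPS19, a protein of the small ribosomal subunit, followed with 265 in both libraries. EIF3E, a subunit of an initiation factor, had 238 and 236, HEATR2, a dynein assembly factor, 378 and 228, and CASC3, of the exon junction complex, 224 and 237. ACTR3B, related to the actin-nucleating ARP3, had 230 and 195. The regions of BRWD1 and CASC3 hold no CACGTG at all, and the other 4 hold 1 copy each near the midpoint.

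Clearing was graded with the score. Of the promoter regions with a lower score under 30, 109 of 121 had no dTAG47 peak (90.1%). The share was 84.3% from 30 to 60, 66.4% from 60 to 120 and 36.9% from 120 to 240, and it was 2 of 18 at 240 or more, the 2 being BRWD1 and RPS19. The dTAG47 libraries differed in what they still showed. Library 1 had a peak in 25.2% of the 817 promoter regions, library 3 in 90 of them and library 2, with 7 peaks in all, in 0%.

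**Figure D2:**
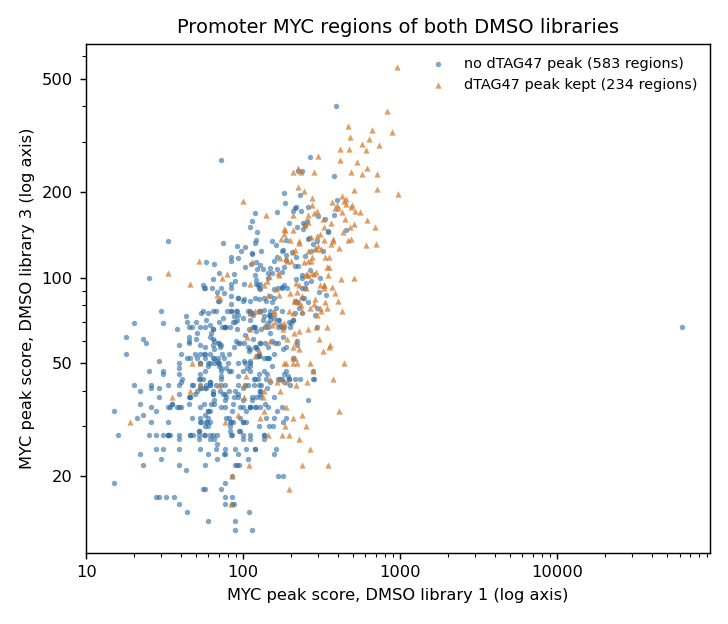
MYC peak score of each promoter region in DMSO library 1 (horizontal, log axis) and DMSO library 3 (vertical, log axis); circles are the 583 cleared regions and triangles the 234 regions that kept a dTAG47 peak. Kept regions lie towards higher scores, and the point far to the right is the region at RPS29.

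The region at RPS29, another small-subunit protein, was singled out after its scores were seen. It scored 62264 in DMSO library 1 and 67 in library 3, at chr14:50052635-50053594, and it was the highest score of any cleared region in library 1. Among promoter regions called in 1 DMSO library, the highest score in library 1 was 34256. Its scores in ATAC-seq were 898, 769 and 268 in DMSO and 627, 547 and 866 in dTAG47, which overlap. The difference between the 2 ChIP-seq libraries at this place has no replicate check.

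The chromatin of the cleared regions was open in both conditions. An ATAC-seq peak overlapped 98.3%, 97.1% and 94.3% of the 583 regions in the DMSO libraries and 97.3%, 95.2% and 97.4% in the dTAG47 libraries, 24 h after treatment. The groups overlapped. The means were 96.6% ± 2.02 in DMSO and 96.6% ± 1.24 in dTAG47 (SD, n = 3 each). The difference of 0.057 percentage points gave a two-sided p of 1 in the exact permutation test, which cannot go below 0.1 here. Peaks of all 6 libraries met in 532 regions, and no region had a peak in every library of 1 condition and in none of the other. The 4 regions without a peak in any library were at RPL7A, ARHGDIA, NRARP and ANP32A. Windows of the same median width at all start sites had a peak in 51.6% to 57.9%. The libraries held 28429 to 50983 ATAC-seq peaks, and the DMSO library with the fewest also had the lowest share. A peak list gives presence and not height, so a partial change in openness was not measured.

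A region was assigned to every gene with a start site within 1 kb of its midpoint, which gave 683 genes. Of these, 636 were matched to the RNA-seq table, and 621 passed the filter on low counts. They were genes in use. Their median level in DTMYC cells in DMSO was 16.7 CPM per kb of gene length, against 30.9 for genes of kept regions, 12.7 for genes of regions called in 1 library and 1.27 for genes without a MYC region. The PRO-seq gene body level had the same order, with medians of 3.31, 4.79, 2.43 and 0.134 CPM per kb. The class without a MYC region, here and below, includes genes found only at 51 promoter regions of 1 DMSO library with a dTAG47 peak. Of the 683 genes, CBX3 and SYNCRIP also had a kept region.

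In RNA-seq of DTMYC cells the genes of cleared regions fell far more often than they rose. With all 12 libraries in the edgeR fit, 109 of the 621 genes fell (17.6%), where 4.44% of all 13401 genes tested fell. Only 6 rose (0.966%), where 4.27% of all genes rose and 8.71% changed in either direction. The threshold was an adjusted p of 0.05. The median log2 change was −0.15 over these genes and 0.03 over all genes, and 74.6% of the genes had a negative change against 44.2% of all. The scaling of libraries takes most genes as unchanged, so falls and rises, also in PRO-seq, are relative to the bulk of genes. All 3 dTAG47 libraries lay below all 3 DMSO libraries in 327 genes (52.7%, where 20% of all genes did so), and above them in 58 (9.34%, against 25.2%). The falls were small. None of the 109 reached 2-fold. In bulk RNA, fewer cells of a kind and less RNA per cell cannot be told apart.

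The count of calls depended on the libraries in the fit. In a fit restricted to the 6 libraries of DTMYC cells, 326 genes fell (52.5%, where 19.9% of all genes fell) and 30 rose (4.83%, against 16.5%), and these included all 109 and all 6. In that fit 78.1% of the genes had a negative change, against 49.5% of all, and 359 fell and 41 rose at an unadjusted p under 0.05 (24.2% and 21.3% of all genes). Without the parental DMSO library 1 the count of falls was 128 (5.69% of all genes). Without the parental DMSO library 3 the count of falls was 299 (16.6% of all genes fell). Leaving out DTMYC DMSO library 1, 2 or 3 gave 37, 72 and 31 falls (1.36%, 2.85% and 1.23% of all genes). Leaving out dTAG47 library 1, 2 or 3 gave 41, 33 and 45 (1.61%, 1.22% and 1.53%).

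Genes of the other promoter regions give the setting for these shares. Of 265 tested genes with a kept region, 42 fell (15.8%), with a median of −0.18. Of 1899 genes whose region was called in 1 DMSO library, 169 fell (8.9%), with a median of −0.05. Of 9767 genes without a MYC region, 260 fell (2.66%) and 537 rose (5.5%), with a median of 0.07. The differences between these classes were not tested. Genes of cleared regions made up 18.3% of the 595 genes that fell and 4.63% of the genes tested. Within the cleared regions, 13.9% of genes fell at scores of 13 to 33, 17.3% from 34 to 49, 23.2% from 50 to 74 and 15.7% from 74 to 389. With a central CACGTG 31 of 141 genes fell (22%), and without it 78 of 480 (16.2%).

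**Figure D3:**
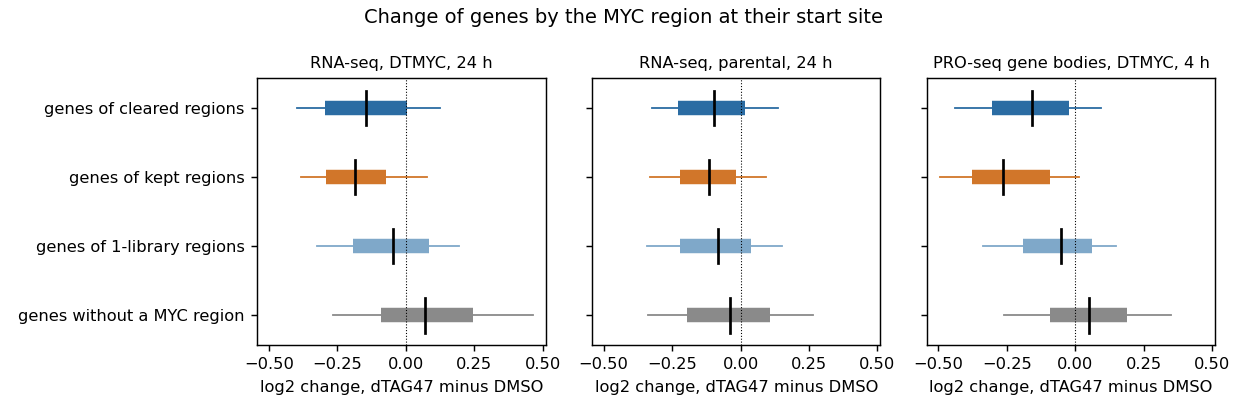
Log2 change of genes, dTAG47 minus DMSO (horizontal axis), by the MYC region at their start site; thick bars span the quartiles, thin lines the 10th to 90th percentile, and black ticks mark the median. In RNA-seq of DTMYC cells the medians run from −0.15 and −0.18 for cleared and kept regions to 0.07 without a region, and in parental cells all 4 medians are below 0.

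Parental cells, in which dTAG47 has no MYC to degrade, gave the background of the compound. No gene of a cleared region fell at the threshold in edgeR (0.0224% of all genes fell) and 2 rose (0.104% rose, and 0.127% changed in either direction). At an unadjusted p under 0.05 there were 91 falls and 37 rises, where 8.53% of all genes fell and 6.95% rose. DESeq2 called 24 changes (2.82% of the 11001 genes to which it gave an adjusted p). The 6 parental libraries alone gave 0 calls in edgeR (0% of all genes), with 31 falls and 17 rises at an unadjusted p under 0.05 (3.16% and 3.59% of all genes). The median was −0.10 against −0.05 over all genes, and 71.2% of the genes had a negative change against 59.1% of all. All dTAG47 libraries lay below all DMSO libraries in 65 genes (10.5%, against 6.63%). Without the parental DMSO library 3, 169 genes changed (20.1% of all genes), and without DMSO library 2, 28 (2.61%). The 2 that rose, named after their values were seen, were METAP1D, a mitochondrial methionine aminopeptidase, and SHISA3. SHISA3 had 68.6, 81.8 and 78.5 CPM in DMSO and 120.5, 114.8 and 126.5 CPM in dTAG47, a log2 change of 0.66 ± 0.08 (SE, adjusted p = 0.009). METAP1D rose in both lines, from 22.0, 22.9 and 22.8 CPM to 35.9, 35.5 and 34.2 in parental cells (0.64 ± 0.07) and from 55.0, 54.0 and 55.5 CPM to 70.5, 73.3 and 67.5 in DTMYC cells (0.36 ± 0.07). No library of either treatment overlapped the other, which for METAP1D in DTMYC cells the rule for naming it required.

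The difference between the lines was tested as an interaction. It was called in 11 genes of cleared regions, each lower in the DTMYC response (0.59% of all genes were called lower, and 1.19% in either direction), and in 0 in the other direction (0.597%). At an unadjusted p under 0.05, 119 were lower and 30 higher, where 8.26% and 10.9% of all genes were. The 11, of which USP36, MNT, SLC7A5, THAP4 and VDAC1 are named after their values were seen, were PPARGC1B (−0.85 ± 0.10), USP36 (−0.80 ± 0.11), RRP1B (−0.67 ± 0.09), MNT, SLC7A5, IMP4, SHISA3, THAP4, PA2G4, GRPEL1 and VDAC1, with adjusted p from 0.00523 to 0.0442. For SHISA3 the call came from the parental rise, since its change in DTMYC cells was 0.11. This count moved with the setting, as did the count over all genes. It was 3 with RLE scaling (0.47% of all genes), 37 with DESeq2 (4.75%), 189 without the parental DMSO library 3 (17.9%) and 36 without the parental DMSO library 2 (4.06%). Without any 1 of the DTMYC or parental dTAG47 libraries it was 1 or 3, where 0.037% to 0.206% of all genes were called.

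The largest falls brought together genes of different trades. YDJC, at the head, stood at 99.8, 87.1 and 106.0 CPM in DMSO and at 57.5, 52.6 and 54.0 in dTAG47 (log2 change −0.84 ± 0.15, edgeR adjusted p = 0.0058). LAMC3, a laminin chain of basement membranes, went from 188.8, 166.5 and 184.5 CPM to 117.1, 113.2 and 107.7 (−0.68 ± 0.11, adjusted p = 0.00507). IMP4, a protein of the complex that processes ribosomal RNA, went from 154.5, 151.3 and 167.7 CPM to 104.9, 97.2 and 96.3 (−0.67 ± 0.09, adjusted p = 0.0016). In none of these 3 genes did the treatments overlap, which the rule for naming them required. TAF4B, a variant subunit of the TFIID complex, fell by 0.65 and POLR3G, a subunit of RNA polymerase III, by 0.60. RRP9 and NLE1, both of ribosome assembly, fell by 0.59 each. PPARGC1B, a coactivator of mitochondrial biogenesis, had 98.8, 95.9 and 103.7 CPM in DMSO and 66.3, 66.9 and 67.1 in dTAG47 (−0.58 ± 0.07, adjusted p = 0.00116). In parental cells it had 31.0, 31.1 and 32.7 CPM in DMSO and 36.1, 39.3 and 39.3 in dTAG47, the other direction.

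The 6 rises were APOLD1, METAP1D, STX18, C14orf133, CD63 and ANXA2. APOLD1, known from endothelial cells, was the only one to reach 2-fold, from 5.19, 5.67 and 5.11 CPM to 11.5, 10.9 and 10.2 (1.03 ± 0.16, adjusted p = 0.00321). Its change in parental cells was 0.50, and the interaction was not called (adjusted p = 0.201). The midpoint of its region is at −796.5 bases from the start site, with scores of 53 and 44 and no CACGTG. STX18, a syntaxin of the endoplasmic reticulum, rose by 0.34, CD63, a tetraspanin of late endosomes, by 0.30, and ANXA2, a calcium-dependent membrane-binding protein, by 0.24. ANXA2 was abundant, with 789.0, 742.8 and 806.0 CPM in DMSO and 922.2, 935.2 and 904.8 in dTAG47. The regions of METAP1D, STX18, C14orf133 and CD63 hold CACGTG, with 2 copies at METAP1D and 1 at each of the others, while that of ANXA2 holds none.

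**Figure D4:**
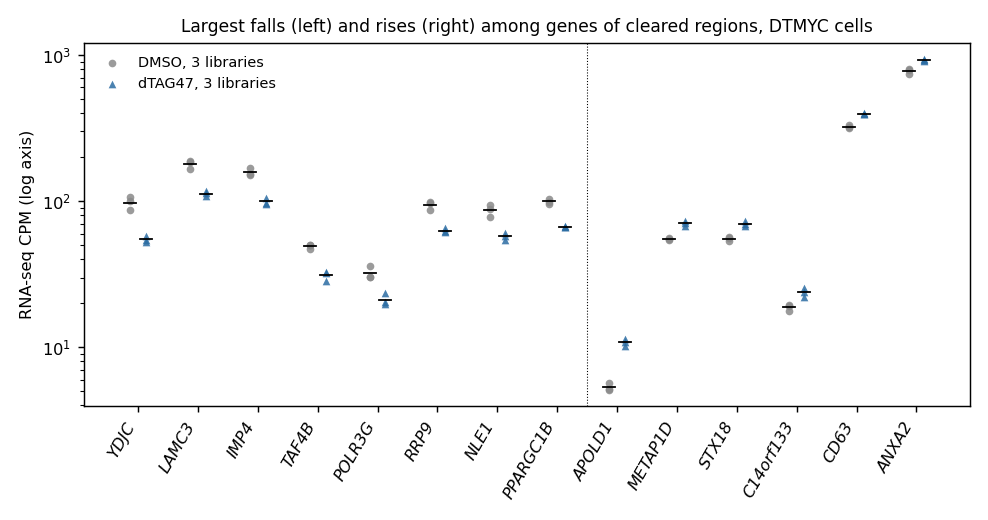
RNA-seq level in CPM (vertical, log axis) of the 8 largest falls and the 6 rises among genes of cleared regions, in each of 3 DMSO libraries (circles) and 3 dTAG47 libraries (triangles) of DTMYC cells; short lines are means. In every gene shown the libraries of the 2 treatments do not overlap, which the rule for naming them required.

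Ribosome biogenesis held the most falls of any list in number, and it also had the most members at cleared regions. As a share of tested members, canonical MYC targets (10 of 16) and translation factors (5 of 9) stood higher. Of the 25 ribosome biogenesis members, 13 fell and none rose, with a median of −0.38, where 4.44% of all genes fell. All 25 fell in the fit of the 6 DTMYC libraries, where 19.9% of all genes fell. Of the other 91 tested genes of the list, 39 fell, with a median of −0.33, and the difference between these groups was not tested. In parental cells the median of the 25 was −0.12. RRP1B, a nucleolar protein of ribosome assembly, had 379.0, 394.7 and 392.6 CPM in DMSO and 266.8, 271.5 and 261.7 in dTAG47 (−0.54 ± 0.06, adjusted p = 0.00107). RRP9 had 97.5, 87.1 and 98.9 CPM in DMSO and 65.3, 61.2 and 62.3 in dTAG47. Among 4 members of the polymerase I and III apparatus POLR3G fell and the other 3 did not pass. Of the other 35 tested genes of that list, 9 fell.

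Ribosomal proteins themselves behaved differently in the count. None of 17 tested members passed the threshold in the 12-library fit, and neither did any of the other 61 genes of the list. Their median was −0.18 in DTMYC and −0.12 in parental cells, and 15 of the 17 fell in the 6-library fit, where 19.9% of all genes fell. RPL13A, of the large subunit, had 1947, 1623 and 2094 CPM in DMSO and 1594, 1624 and 1780 in dTAG47, which overlap (−0.18 ± 0.14, adjusted p = 0.502). RPS19 stood at only 10.7, 8.82 and 12.7 CPM in DMSO and 7.73, 8.78 and 7.10 in dTAG47 (adjusted p = 0.0945). Ribosomal protein genes have many near-identical copies in the genome, so their counts are uncertain.

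Translation factors fell in 5 of 9 tested members, with a median of −0.32, against 3 of 48 among the other genes of that list, a difference that was not tested. In the 6-library fit all 9 and 32 of the 48 fell, where 19.9% of all genes fell. In parental cells the median of the 9 was −0.14. TUFM, the mitochondrial elongation factor, had 201.4, 182.5 and 210.3 CPM in DMSO and 148.4, 142.1 and 139.3 in dTAG47 (−0.47 ± 0.09, adjusted p = 0.0095). EEF1D, a nucleotide exchange subunit of the elongation machinery, fell by 0.32. EIF3M, an initiation factor subunit, fell by 0.33 in DTMYC cells, and its change in parental cells was as large (−0.36, interaction adjusted p = 0.925). EIF3E, of the third strongest cleared region, had a change of −0.26 and did not pass (adjusted p = 0.0584), and its change in parental cells was −0.42. Of 7 aminoacyl-tRNA synthetases, MARS2 (−0.42) and KARS (−0.32) fell, as did 2 of the other 31 tested genes of that list.

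Mitochondrial genes followed. Of 11 members for import, chaperones and biogenesis, 5 fell, with a median of −0.36 in DTMYC and −0.17 in parental cells. Of the other 38 tested genes of that list, 11 fell. GRPEL1, the nucleotide exchange factor of the mitochondrial HSP70, had 120.4, 117.4 and 121.6 CPM in DMSO and 79.5, 82.0 and 83.5 in dTAG47 (−0.55 ± 0.06, adjusted p = 0.000971). DNAJA3, its partner of the DnaJ family, fell by 0.36. Of 9 mitochondrial ribosomal proteins 4 fell, among them MRPL12 (−0.53), MRPS27 (−0.35) and MRPS30 (−0.34). The median of the 9 was −0.24 in DTMYC and also −0.24 in parental cells, where none passed. The changes of MRPL12, MRPS27 and MRPS30 in parental cells were −0.29, −0.12 and −0.15. Of the other 71 tested genes of that list, 9 fell in DTMYC cells.

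Nucleotide synthesis had 4 falls among 8 members and 10 among the other 33 tested genes of its list. Over all genes 4.44% fell. DHODH, which makes orotate, fell by 0.52, UCK2, a uridine-cytidine kinase of the salvage pathway, by 0.41, and PFAS, of purine synthesis, by 0.40. None of 4 one-carbon members passed, while 8 of the other 23 tested genes of that list fell. In the 6-library fit 3 of the 4 fell, where 19.9% of all genes fell. MTHFD2 had a change of −0.24 (adjusted p = 0.335). Among cytosolic chaperones 4 of 12 fell, with AHSA1 (−0.35), TCP1 (−0.35) and CCT2 (−0.33), the latter subunits of the TRiC chaperonin. Of the other 30 tested genes of that list, 4 fell. Nuclear transport had 2 falls among 12, RANBP1 (−0.40) and XPO6 (−0.27), and 2 among the other 45 tested genes of its list. Splicing had 1 fall among 11, HNRNPF (−0.31), and 3 among the other 81 tested genes of its list. These differences were not tested.

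Cell cycle genes and the MAX network had 1 call in the 12-library fit. Of 4 DNA replication members MCM3 alone fell (−0.25, adjusted p = 0.0397). Of 3 G1 to S genes none passed, and CCND1 had 469.2, 499.9 and 479.2 CPM in DMSO and 508.1, 503.5 and 505.8 in dTAG47 (0.07, adjusted p = 0.584). Of the MAX network and cofactors, ARID1A, MLXIP, MNT, MXD3 and SMARCC1 had cleared regions, and none passed in the 12-library fit. In the 6-library fit 3 of them fell and 1 rose, where 19.9% of all genes fell and 16.5% rose. MNT, a repressor that pairs with MAX, is among the line-specific responses above, with −0.29 in DTMYC and 0.32 in parental cells. ARID1A, a SWI/SNF subunit, had 335.2, 331.7 and 344.5 CPM in DMSO and 393.6, 382.3 and 372.3 in dTAG47, with a log2 change of 0.18 (adjusted p = 0.337). AZIN1 of polyamine synthesis and CTSA of the lysosome, the only members of their lists, had changes of 0.09 and 0.02. Of the list of canonical MYC targets, 10 of 16 members fell (median −0.40), as did 33 of 55 other genes, and PA2G4, a growth regulator of the nucleolus, fell by 0.49.

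Of the cleared regions, 80 had the start sites of divergent genes within 1 kb of the midpoint, and both genes were tested in RNA-seq for 57. In 16 of these 1 gene fell and the other was not called, in 40 neither was called, and in none were both called as falls. A missing call is not a missing change: both changes were negative in 31 of the 57, both positive in 3 and opposite in 23. MTRR and FASTKD3, for example, had −0.36 and −0.51, of which the second was called. Of 15 other regions with a pair of tested genes, 1 had both called as falls, that of KLHL18 (−0.37) and KIF9 (−0.42). These 4 genes are named after their values were seen. The remaining divergent region, with scores of 110 and 35, is shared by the gene pair of AHSA1, an activator of HSP90, and C14orf133, now named VIPAS39, a protein of vesicle sorting, at chr14:77924102-77925134. AHSA1 had 142.3, 137.0 and 143.1 CPM in DMSO and 113.4, 108.9 and 108.7 in dTAG47. C14orf133 had 19.6, 17.8 and 19.2 CPM in DMSO and 24.0, 25.4 and 22.1 in dTAG47 (0.34 ± 0.08, adjusted p = 0.0289). Neither pair of groups overlapped, which for C14orf133 the rule for naming it required. The gene body change in PRO-seq was −0.35 for AHSA1 and 0.16 for C14orf133.

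None of the genes at the strongest or the most E-box-rich regions was among the largest falls and rises named above. BRWD1 had 63.6, 72.3 and 66.7 CPM in DMSO and 68.4, 67.0 and 77.1 in dTAG47, a change of 0.07 (adjusted p = 0.85), and CASC3 had −0.04. HEATR2 had −0.26 (adjusted p = 0.0871). ACTR3B was the only one of the 6 to pass, at −0.35 ± 0.08 (adjusted p = 0.0157). GET4, with 9 copies of CACGTG, had −0.04, ZZZ3 −0.02 and ZFP36L2, an RNA-binding protein and 1 of 13 regions with 3 copies, 0.01. GET4 was at 3.79 to 4.75 CPM in RNA-seq, and it overlaps SUN1.

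PRO-seq, which counts engaged RNA polymerases, gave the earlier view at the time of the ChIP-seq. No gene body passed the threshold in edgeR, among members or among all 13397 genes (0% called), with 2 libraries a group. At an unadjusted p under 0.05, 175 members fell and 1 rose, where 5.92% of all genes fell and 3.77% rose, and 78.5% of the members had a negative change against 46.7% of all. DESeq2 called 14 members (0.571% of the 11568 genes to which it gave an adjusted p). The median log2 change of 664 members was −0.16, against 0.02 over all genes, −0.27 for kept regions, −0.05 for regions of 1 library and 0.05 without a region. Both dTAG47 libraries lay below both DMSO libraries in 318 members (47.9%, where 19.3% of all genes did so), and above in 46 (6.93%, against 20.6%).

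The gene bodies with the smallest p among falls were these. LAMC3 had 183.9 and 179.3 CPM in DMSO and 100 and 98.0 in dTAG47 (−0.87 ± 0.08, edgeR adjusted p = 0.274). C3orf26, now named CMSS1, had 301.5 and 294.9 CPM in DMSO and 212.4 and 208.7 in dTAG47 (−0.50 ± 0.07). TAF4B had 213.7 and 203.0 CPM in DMSO and 145.2 and 143.7 in dTAG47 (−0.53 ± 0.08). ZNF239, a zinc finger gene, had 50.6 and 52.9 CPM in DMSO and 32.9 and 33.0 in dTAG47 (−0.65 ± 0.10), while its RNA did not pass at 24 h (adjusted p = 0.294). The groups did not overlap in any of the 4, which were picked for their small p. The single member with an unadjusted p under 0.05 in the other direction was ANXA2, with 365.9 and 347.7 CPM in DMSO and 454.6 and 441.0 in dTAG47 (0.33 ± 0.08, adjusted p = 0.421). ARID1A, SUV420H1, a histone methyltransferase, and TRERF1 followed with 0.18, 0.20 and 0.19 and adjusted p from 0.515 to 0.533.

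Promoter-proximal counts had a smaller median change and fewer small p-values, from fewer counts per library than gene bodies. The 10th percentile of the members' changes was −0.52, against −0.44 in gene bodies. No member passed in edgeR (0% of 10226 genes called), and 65 fell and 4 rose at an unadjusted p under 0.05 (3.76% and 2.71% of all genes). The 4 were APOLD1, DBP, ELOVL1 and SEPHS1, of which DBP and ELOVL1 are named after their values were seen. The median of 658 members was −0.10 against 0.01 over all genes, and both dTAG47 libraries lay below both DMSO libraries in 212 (32.2%, against 17.7%). URB1, a ribosome biogenesis factor, had 196.1 and 175.8 CPM in DMSO and 125.8 and 89.4 in dTAG47 (−0.79 ± 0.20, adjusted p = 0.64). MACROD1, a mono-ADP-ribose hydrolase, had 120.2 and 121.0 CPM in DMSO and 65.4 and 74.2 in dTAG47 (−0.79 ± 0.20). APOLD1 had 69.0 and 66.3 CPM in DMSO and 113.4 and 112.4 in dTAG47, a change of 0.74 ± 0.20 (edgeR adjusted p = 0.64), in the direction of its RNA. SEPHS1, a selenophosphate synthetase paralogue, had 24.0 and 13.4 CPM in DMSO and 31.4 and 32.4 in dTAG47.

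Polymerase at 4 h and RNA at 24 h ran in parallel over these genes. All 109 genes that fell in RNA-seq had a negative gene body change, and none of the 6 that rose had one. Among all tested members 78.5% had a negative gene body change, against 46.7% of all genes. The same share was not taken for all genes that fell or rose in RNA-seq. Across 617 members the 2 log2 changes had a Pearson r of 0.789 and a Spearman rho of 0.804, against 0.529 and 0.633 across 11567 genes. Members also stood at higher levels than genes without a MYC region. Correlations were not taken for genes of like level or for genes of the kept or 1-library regions. These are descriptions across genes, which are not independent replicates, and the assays share no library. The sign was the same in 82% of the members and in 75.2% of all genes. IMP4 had a gene body change of −0.75, RRP9 of −0.83 and YDJC of −0.88, and METAP1D, which rose in both lines, of 0.15.

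**Figure D5:**
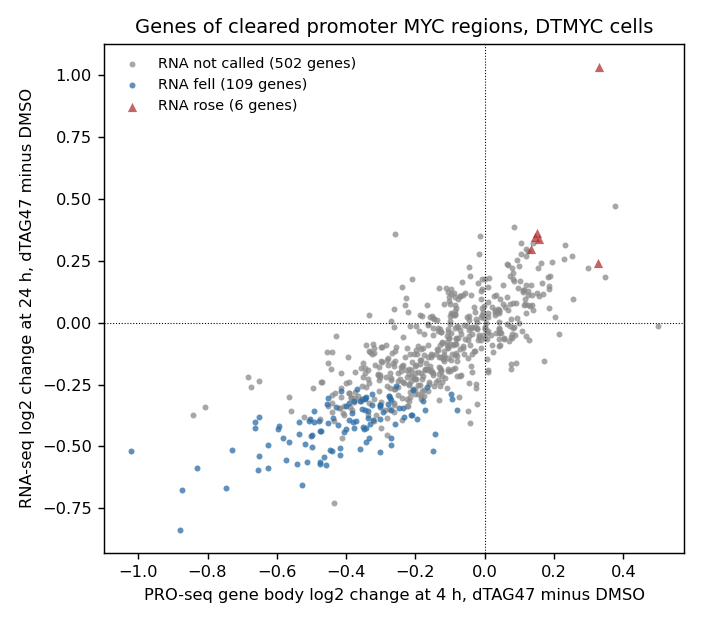
Log2 change of each gene of a cleared region, dTAG47 minus DMSO, in PRO-seq gene bodies at 4 h (horizontal) and in RNA-seq at 24 h (vertical) of DTMYC cells; blue circles fell and red triangles rose in RNA-seq at an adjusted p of 0.05, and grey circles were not called. All 109 blue points lie left of 0 and all 6 red points right of it.

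The replicates are libraries of 1 line and treatment, and the labels do not say that they came from separate cultures, so every p-value measures only the spread between these libraries.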

How the data were processed

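The samples were DTMYC and parental G401 cells, grouped by the labels of the 30 samples. The authors deposited RNA-seq and PRO-seq as raw counts per gene and peak lists with a score per peak, called for each library alone. Tools listed in the submitters' processing notes are cutadapt, Bowtie2 and STAR, featureCounts, MACS2, DiffBind and DESeq2, with hg19 as the build and roles and strand settings not given in the sources used here. Of the deposited per-sample columns 4 (those headed gbd) were not used, and the 3 IgG samples were not analysed here. The labels name MYC as the ChIP-seq antibody, whereas the names of the deposited lists say HA.

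The test of counts was that of edgeR 4.0.16 (R 4.3.3; filterByExpr, TMM, quasi-likelihood F-test, two-sided, Benjamini-Hochberg over all genes, threshold 0.05). All 12 RNA-seq libraries entered 1 fit. The alternatives included DESeq2 1.42.0, and the others are in the closing section. CPM use effective library sizes. The edgeR steps were tested on simulated data: of genes changed 1.5-fold, 65% were recovered in RNA-seq, 28% in gene bodies and 16% in promoter-proximal counts. The simulated counts gave every gene the same spread and held no outlying library. These shares therefore check the steps and do not give the power of the real data. RNA-seq libraries held 27854207 to 54633745 counts, and intervals cover counting error only.

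Gene symbols of the PRO-seq table were matched to RNA-seq by name, by older names and by synonyms in a RefSeq table of GRCh38 (names only), with overlapping positions. Sequence came from GRCh37 and exons from GENCODE 44. Named were the 6 strongest regions, the 3 with most CACGTG, the 8 largest falls and rises past the threshold with at least 5 CPM and groups that do not overlap, up to 3 genes per list past the threshold by adjusted p (or the most abundant), the 4 falls and 4 rises of smallest p in gene bodies and 2 and 2 in promoter-proximal counts. The 19 gene lists, like the regions themselves, were chosen with earlier results of these data known.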

Additional observations from a re-analysis of the deposited data

Results flagged for a closer look

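In 5 of the genes described above, the RNA-seq response to dTAG47 differed between the lines by the interaction test of the 12-library edgeR fit. The response in DTMYC cells minus that in parental cells, on the log2 scale, was −0.85 for PPARGC1B, −0.67 for RRP1B, −0.59 for IMP4, −0.51 for PA2G4 and −0.46 for GRPEL1, with adjusted p of 0.00523, 0.00848, 0.043, 0.041 and 0.0351. All 5 fell in DTMYC cells. In parental cells PPARGC1B changed by 0.27, RRP1B by 0.13 and PA2G4 by 0.02, and IMP4 and GRPEL1 by −0.08 and −0.09. All 5 calls held with DESeq2 and without the parental DMSO library 2 or 3. PPARGC1B and RRP1B alone of the 5 were called with RLE factors, with no filter on low counts and without any 1 of the DTMYC libraries or parental dTAG47 libraries 1 and 3. PPARGC1B alone was called without parental dTAG47 library 2. GRPEL1 lost its call with the replicate number as a block, and IMP4 and PA2G4 lost theirs without parental DMSO library 1.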

How the results depend on the processing

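Of the counts described, member regions numbered 2254 without DMSO library 3, which leaves the peaks of a single library, and 583 to 2254 when any ChIP-seq library was left out. The E-box share was 41.2% within 250 bases (54.3% in kept regions) and 55.4% anywhere in the region (71.4%). The ATAC-seq difference turned to −0.572 points with 50% of a region covered, and ranged from −1.06 (without DMSO replicate 3) to 0.915, with −0.257 and −0.343 without dTAG47 replicates 1 and 3. Genes fallen numbered 326 with the 6 libraries of the line and 31 to 299 when 1 library was left out. Genes risen numbered 30 with the 6 libraries (16.5% of all genes), 3 with no filter on low counts and 1 to 22 with 1 library left out. For the last 2 settings the share of all genes that rose was not taken, so these counts stand without a background. Parental changes numbered 0 with the 6 libraries, 24 with DESeq2 and 0 to 169 with 1 library left out. Line-specific responses numbered 37 with DESeq2, 3 with RLE factors, 5 with no filter (0.568% of all genes) and 1 to 189 with 1 library left out. Gene body changes numbered 14 with DESeq2, 1 with no filter and 1 to 8 with 1 library left out. With the replicate number as a block, 368 gene bodies (332 fell and 36 rose) and 35 promoter-proximal counts (34 and 1) changed, where 32.5% and 2.56% of all genes did, and the deviations of same-numbered PRO-seq libraries correlated at 0.639 and 0.352, but 2 numbers that no label ties to a culture do not pair the samples. In RNA-seq same-numbered DTMYC libraries correlated at 0.085, −0.011 and −0.048, and parental ones at 0.324, 0.048 and 0.367. The causes of these differences were not tested, beyond fewer libraries in the fit.

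Of 963 single-gene values under the alternatives, 778 kept direction and side of the threshold, 140 lost the call, 32 gained one and 13 changed sign. The sign changes were all in genes near 0. With the 6 libraries CTSA went to −0.012 and ZFP36L2 to −0.014. With 1 library left out, CTSA ranged from −0.018 to 0.055, GET4 from −0.141 to 0.012, ZZZ3 from −0.072 to 0.017 and ZFP36L2 from −0.019 to 0.061.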
